A study of Danio rerio with 12 samples.

Results

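The 10 lipogenic genes described here encode the enzymes that build and desaturate fatty acids and the 2 sterol regulatory transcription factors that drive them. They are the desaturase genes scdb, scd and fads2, the synthase gene fasn, the carboxylase gene acaca, the elongase genes elovl6, elovl5 and elovl2, and the regulator genes srebf1 and srebf2. Matching by gene symbol, with case and copy suffixes ignored, found all 10 symbols in 11 of the 27827 gene rows, because fasn has a second row listed as FASN (2 of 2). The members were selected on a measured value, their difference in counts between the MyrRSK and GFP melanomas in an earlier look at these data, so that difference is described below, and the calls that the fit over all genes made for them are listed as a description and support nothing.

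PolyA RNA was sequenced from 12 zebrafish (Danio rerio) melanomas, 6 of genotype MiniCoopR-MyrRSK and 6 of genotype MiniCoopR-GFP, all untreated. MiniCoopR is a transgenesis vector that returns mitfa, the master regulator of melanocytes, to fish that lack it, together with a gene of interest. RSK is a ribosomal S6 kinase, and the prefix Myr is generally used for a myristoylation signal, which takes a protein to membranes. GFP is the control protein. The host strain, any further allele, the age of the fish and the species of the RSK sequence are not given in the labels, so expression of the transgene was not checked. The labels do not say that each tumour came from a separate fish, and p-values then measure the spread between these samples, which may be technical.

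In de novo fatty acid synthesis, acetyl-CoA carboxylase makes malonyl-CoA, and fatty acid synthase joins these units into palmitate. Elongases lengthen the chain, and desaturases add double bonds: stearoyl-CoA desaturases make monounsaturated fatty acids, while fads2, elovl5 and elovl2 act on polyunsaturated ones. The products of srebf1 and srebf2 are membrane-bound precursors that are cut and enter the nucleus when sterols are low. In mammals srebf1 acts mostly on fatty acid genes and srebf2 mostly on cholesterol genes, and in human melanoma cells SCD has been reported as a target of MITF.

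The libraries held 61750434 to 72257237 counts each, and the lowest count of any member in any library was 15. Levels are given as CPM, the counts scaled to a common library size by TMM. The first principal component of log2 CPM (18.2%) set GFP 1 and GFP 2 off from the remaining 10 libraries, so fold changes of the members are also given without that pair. Melanocyte markers were present in every tumour: the 20 tested of 26 named summed to 5645 to 22381 CPM in MyrRSK and 3066 to 42894 CPM in GFP melanomas, with none at 0. Most skeletal muscle markers were higher in MyrRSK melanomas, but their summed CPM, on average mostly from atp2a1, overlapped between the groups. Of 41 tested muscle genes, 38 had a positive log2 fold change, 3 were called higher (myhz2, myhc4 and pvalb2; 0.29% of all 26866 genes tested were) and the median was 2.56, against -0.07 for all genes tested. At an unadjusted p under 0.05, 28 muscle genes were higher and 0 lower, beside 7.18% and 8.33% of all genes. Those 3 calls ended without GFP 1 and GFP 2. The muscle score, the mean log2 CPM of these genes, ran from -0.87 to 2.88 in MyrRSK and from -1.23 to -0.31 in GFP melanomas. Summed, the muscle genes had 254 to 1631 CPM in MyrRSK (median 476) and 111 to 1248 CPM in GFP melanomas (median 419). The most abundant, atp2a1, picked with its values in view, averaged 472 CPM in MyrRSK and 498 CPM in GFP melanomas. Its log2 fold change was -0.08 ± 0.68. On average atp2a1 made up most of the summed CPM in each group. The overlap of the sums therefore says little about the other muscle genes. The score gives each gene the same weight, whatever its CPM. A gene was called where the Benjamini-Hochberg adjusted p of edgeR's quasi-likelihood test over all tested genes was under 0.05. In bulk tissue a change in the share of a cell type and a change in RNA per cell cannot be told apart.

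Of the 11 rows, scdb had the largest difference between the groups. The gene scdb (ENSDARG00000030265, chromosome 13, 30231767 to 30251332, Zv9) encodes a stearoyl-CoA desaturase. It had 89.8, 151 and 199 CPM (lowest, median and highest) in MyrRSK melanomas, against 1.59, 10.2 and 36.4 CPM in GFP melanomas. The groups did not overlap, and the lowest MyrRSK tumour, MyrRSK 2, lay above the highest GFP tumour, GFP 5. The share of all genes tested that separate in this way is not given here. Nothing is therefore read from this separation or from those of other genes below. The means were 145 ± 37.9 CPM in MyrRSK and 13.5 ± 12.6 CPM in GFP melanomas (SD, n = 6 each), a log2 fold change of 3.42 ± 0.60 (SE) or 10.7-fold. Tumours of the MyrRSK group were alike in scdb, with a highest to lowest ratio of 2.22, whereas the GFP tumours spanned 23.0-fold. In GFP 4 the gene stood at 1.59 CPM and in GFP 1 at 4.64 CPM, while GFP 5 and GFP 6 held 36.4 and 18.3 CPM. Without GFP 1 and GFP 2 the log2 fold change was 3.08 ± 0.66.

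The other stearoyl-CoA desaturase gene, scd (ENSDARG00000033662, chromosome 12, 49684020 to 49699500, Zv9), had 3.94, 16.8 and 37.7 CPM in MyrRSK melanomas, against 4.57, 7.84 and 15.1 CPM in GFP melanomas. Here the groups overlapped. MyrRSK 1, 2 and 4 lay above all GFP tumours and MyrRSK 5 below all of them. The log2 fold change was 1.11 ± 0.47 over all 12 libraries and 1.27 without GFP 1 and GFP 2. The balance of the 2 genes also varied: there were 2.39 to 29.9 scdb counts per scd count in MyrRSK libraries (median 9.73) and 0.215 to 4.39 in GFP libraries (median 1.05). The widest ratio was that of MyrRSK 5, which had 7507 scdb and 251 scd counts, and the narrowest that of GFP 4, with 106 and 493. This count ratio compares libraries with each other, since the files give no lengths by which the levels of different genes could be compared.

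**Figure D1:**
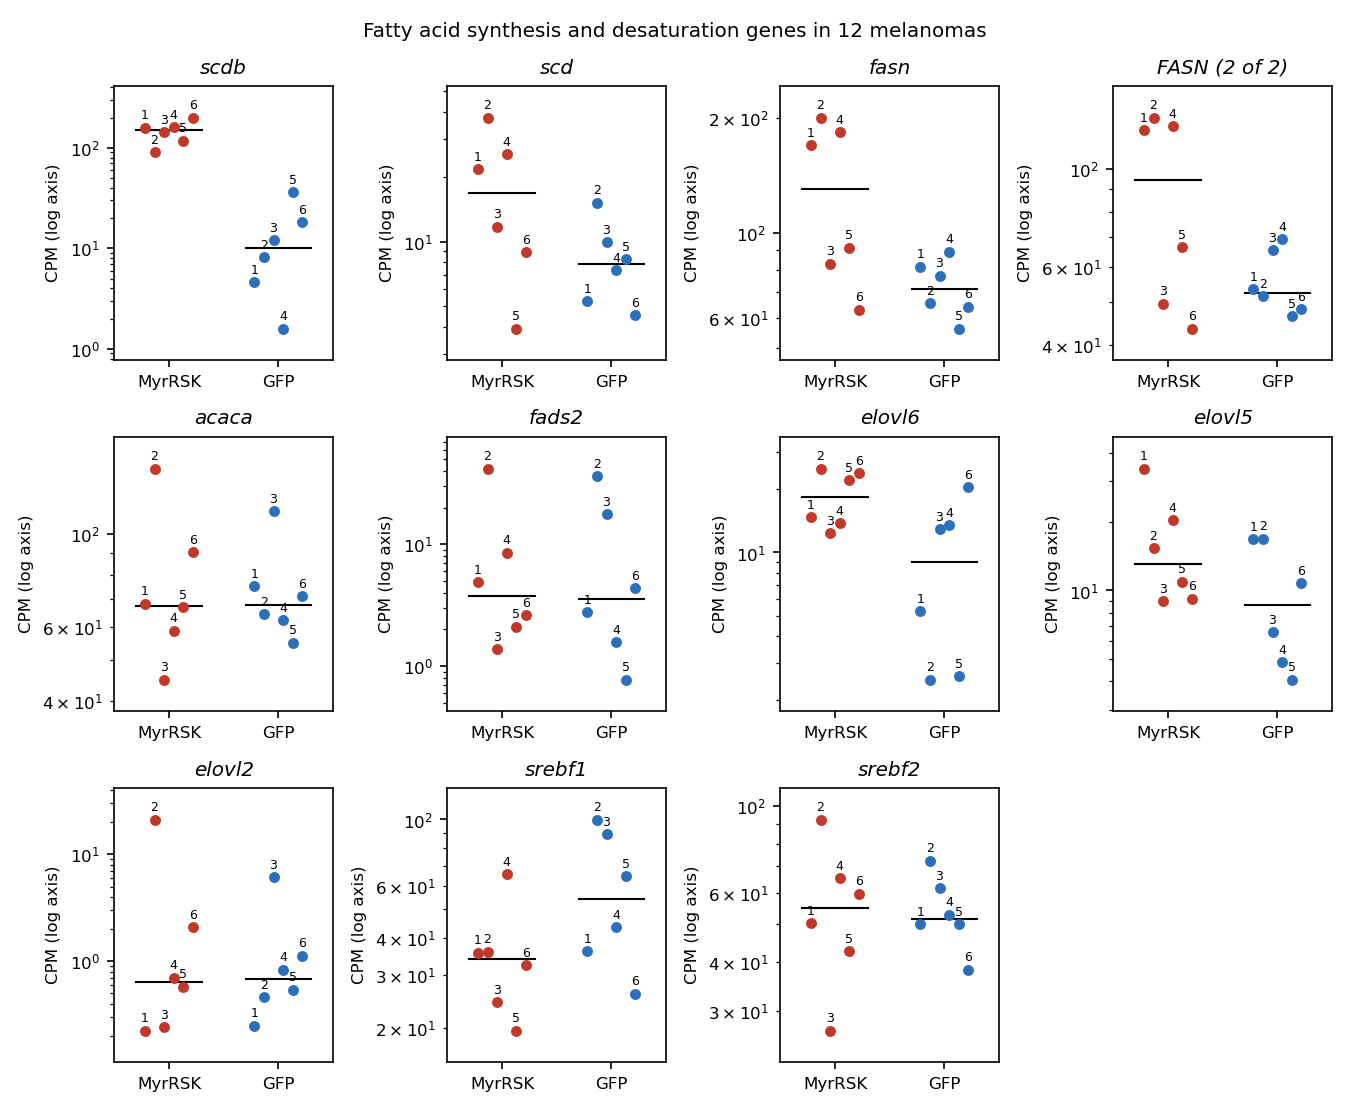
Level of each lipogenic gene row in CPM (log axis) in 6 MyrRSK melanomas (red, left) and 6 GFP melanomas (blue, right). Points are tumours with their replicate number and black lines are medians. In scdb all MyrRSK points, 89.8 to 199 CPM, lie above all GFP points, 1.59 to 36.4 CPM, and in the other 10 rows the groups overlap.

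The synthase gene fasn (ENSDARG00000087657, chromosome 12, 34890656 to 34945420, Zv9) had 63.0, 131 and 201 CPM in MyrRSK melanomas, against 56.1, 71.4 and 89.3 CPM in GFP melanomas. The MyrRSK tumours fell apart into high and low ones: MyrRSK 1, 2 and 4 had 170, 201 and 184 CPM, whereas MyrRSK 3, 5 and 6 had 83.2, 91.5 and 63.0 CPM. The last 3 lay close to or within the GFP range. Means were 132 ± 59.5 and 72.3 ± 12.5 CPM in MyrRSK and GFP melanomas (SD, n = 6 each), and the log2 fold change was 0.87 ± 0.29, or 1.83-fold. Without GFP 1 and GFP 2 it was 0.88.

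The second synthase row, FASN (2 of 2) (ENSDARG00000078895), lies 165238 bases before fasn on the same chromosome, at 34681230 to 34725417. It had 43.5, 94.3 and 130 CPM in MyrRSK melanomas, against 46.5, 52.5 and 69.3 CPM in GFP melanomas, with a log2 fold change of 0.68 ± 0.29, or 0.64 without GFP 1 and GFP 2. The same 3 tumours, MyrRSK 1, 2 and 4, were its highest. The count ratio of fasn to FASN (2 of 2) was 1.37 to 1.68 in MyrRSK and 1.18 to 1.53 in GFP libraries. How reads shared by similar copies were assigned is not given in the sources used here, so the 2 rows are uncertain as separate genes and are best read as 1 signal.

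In MyrRSK 1, 2 and 4 the muscle score was also highest, at 1.14, 2.88 and 2.85, against 0.64, 0.63 and -0.87 in MyrRSK 5, 6 and 3. Adding that score to the model as a covariate gave log2 fold changes (± SE) of 0.051 ± 0.32 for fasn and -0.17 ± 0.33 for FASN (2 of 2). In the same model scd had 0.070 ± 0.62 and scdb 3.43 ± 0.74. The score itself was higher in MyrRSK melanomas, although the summed CPM of its genes, on average mostly from atp2a1, overlapped between the groups. The part of muscle in these values was not tested further. Of 17 hepatocyte markers 0 were called by edgeR (2 higher and 2 lower unadjusted; DESeq2 2 higher; limma-voom 1 higher), and they summed to 278 to 857 CPM in MyrRSK and 152 to 1098 CPM in GFP melanomas, with pah and rbp4 the highest on average. Their score ran from 0.04 to 0.67 in MyrRSK and from -0.47 to 0.14 in GFP melanomas. In a model with it the values were 0.48 ± 0.40 for fasn, 0.36 ± 0.41 for FASN (2 of 2), 0.092 ± 0.66 for scd and 3.82 ± 0.81 for scdb. Only MyrRSK 3 lay within the GFP range of the muscle score, and only MyrRSK 5 within that of the hepatocyte score. Every fit with either score as a covariate, here and below, therefore rests on little overlap of the groups. Liver markers went both ways, with 8 positive and 9 negative log2 fold changes and a median of -0.005. The most abundant, pah, averaged 409 ± 246 CPM in MyrRSK and 410 ± 336 CPM in GFP melanomas (SD, n = 6 each). On average pah made up most of the summed CPM in each group. Most other genes of the list were at low CPM, and the score gives them the same weight as pah. Neither the sum nor the score is read as a share of liver. Picked with their values in view, uox and apoa1a, both at low CPM, had log2 fold changes of -1.42 ± 0.64 and -1.44 ± 0.67. Picked in the same way, the liver genes tfa and fga averaged 78.2 ± 55.0 and 4.01 ± 1.54 CPM in MyrRSK melanomas, against 5.54 ± 7.65 and 0.472 ± 0.817 CPM in GFP melanomas (SD, n = 6 each). They were not called, and in each 5 of 6 MyrRSK tumours lay above all GFP tumours. The liver gene fabp10a was near 0 in every tumour, at 0.106 to 0.412 CPM in MyrRSK and 0.192 to 0.279 CPM in GFP melanomas. Among fat cell markers plin1 (at most 1.72 CPM) and CIDEC (at most 1.02 CPM) were low, whereas cebpb averaged 155 ± 102 CPM in MyrRSK and 140 ± 167 CPM in GFP melanomas, and fabp11a 106 ± 106 and 49.5 ± 71.2 CPM (SD, n = 6 each).

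**Figure D2:**
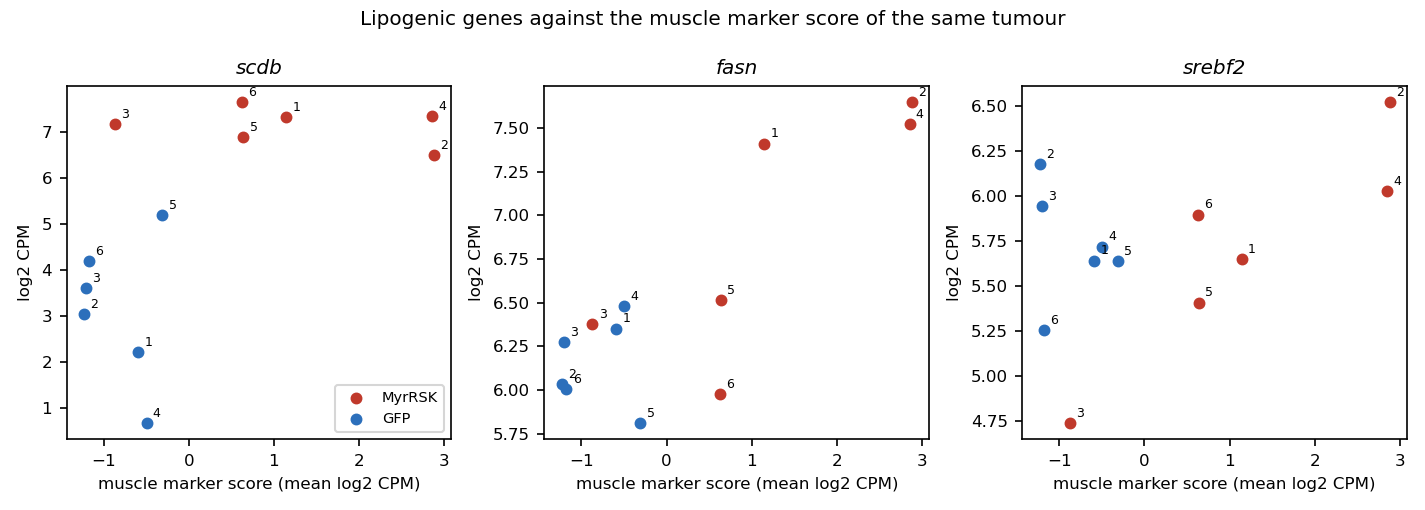
Log2 CPM of scdb, fasn and srebf2 against the muscle marker score (mean log2 CPM of 41 genes) in the same tumour, for 6 MyrRSK (red) and 6 GFP (blue) melanomas with replicate numbers. MyrRSK 1, 2 and 4 are high in both fasn and the score. MyrRSK 5 and 6, with scores of 0.64 and 0.63, have 91.5 and 63.0 CPM of fasn. GFP 5 has the highest score of its group, -0.31, and the lowest fasn, 56.1 CPM. MyrRSK 3, with a score of -0.87, lies within the range of the other MyrRSK tumours in scdb. The part of muscle in these values was not tested.

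The carboxylase gene acaca (ENSDARG00000078512, chromosome 5), whose product makes the malonyl-CoA that the synthase uses, had 44.9, 67.5 and 144 CPM in MyrRSK melanomas, against 55.1, 67.7 and 114 CPM in GFP melanomas. The groups overlapped almost whole, with nearly equal medians, and the log2 fold change was 0.10 ± 0.28. It was 0.063 ± 0.33 without GFP 1 and GFP 2, -0.38 ± 0.41 with the muscle score and -0.30 ± 0.34 with the hepatocyte score as a covariate. Its paralogue acacb, whose product is tied in mammals to the control of fatty acid oxidation, was not called, and is named here after its values were seen. It averaged 27.5 ± 4.86 CPM in MyrRSK and 47.2 ± 26.8 CPM in GFP melanomas (SD, n = 6 each; log2 fold change -0.78 ± 0.30). Per acaca count there were 0.209 to 0.661 acacb counts in MyrRSK libraries (median 0.378) and 0.187 to 1.81 in GFP libraries (median 0.608).

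Among the elongases, elovl6 (ENSDARG00000004402, chromosome 14), which lengthens palmitate to stearate, had 12.4, 18.4 and 25.01 CPM in MyrRSK melanomas, against 2.48, 9.05 and 20.5 CPM in GFP melanomas. The GFP tumours split: GFP 1, 2 and 5 lay below every MyrRSK tumour at 5.25, 2.48 and 2.59 CPM, and GFP 3, 4 and 6 lay within the MyrRSK range. The log2 fold change was 0.97 ± 0.49, and 0.59 without GFP 1 and GFP 2. The polyunsaturated fatty acid elongase gene elovl5 (ENSDARG00000004979, chromosome 13) had 8.97, 13.1 and 34.1 CPM in MyrRSK melanomas, against 4.07, 8.66 and 16.8 CPM in GFP melanomas. Its groups overlapped, with a log2 fold change of 0.72 ± 0.44. That value was 1.33 ± 0.44 without GFP 1 and GFP 2, 0.32 ± 0.71 with the muscle score and -0.22 ± 0.43 with the hepatocyte score.

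High levels of elovl2 and fads2 were found in only a few tumours. The gene elovl2 (ENSDARG00000045414, chromosome 24), which acts on polyunsaturated chains, had 0.224, 0.642 and 21.2 CPM in MyrRSK melanomas, against 0.251, 0.690 and 6.16 CPM in GFP melanomas. The highest values came from MyrRSK 2 and GFP 3, and the other 10 tumours had at most 2.1 CPM. Its log2 fold change of 1.41 ± 1.16 was -1.02 without MyrRSK 2 and 2.69 without GFP 3. It was 0.94 ± 1.31 without GFP 1 and GFP 2, -2.52 ± 1.89 with the muscle score and -1.39 ± 1.57 with the hepatocyte score. The desaturase gene fads2 (ENSDARG00000019532, chromosome 25), which starts the polyunsaturated pathway, had 1.38, 3.77 and 41.9 CPM in MyrRSK melanomas, against 0.771, 3.58 and 36.5 CPM in GFP melanomas. It was high in MyrRSK 2, GFP 2 and GFP 3 and overlapped throughout. Its log2 fold change was -0.05 ± 0.997, and it was -1.44 without MyrRSK 2 and 0.91 without GFP 2. It was 0.75 ± 1.07 without GFP 1 and GFP 2, -3.17 ± 1.82 with the muscle score and -2.87 ± 0.89 with the hepatocyte score (edgeR adjusted p = 0.218, not called).

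Of the regulators, srebf1 (ENSDARG00000067607, chromosome 3) had 19.5, 34.0 and 65.6 CPM in MyrRSK melanomas, against 26.0, 54.0 and 99.8 CPM in GFP melanomas. The groups overlapped. GFP 2 and GFP 3, at 99.8 and 89.2 CPM, lay above all MyrRSK tumours, and the log2 fold change was -0.75 ± 0.36. It was -0.65 ± 0.38 without GFP 1 and GFP 2, -1.33 ± 0.55 with the muscle score and -1.02 ± 0.51 with the hepatocyte score. The gene srebf2 (ENSDARG00000063438, chromosome 3) had 26.7, 54.9 and 92.1 CPM in MyrRSK melanomas, against 38.2, 51.3 and 72.4 CPM in GFP melanomas, with a log2 fold change of 0.05 ± 0.26. It was 0.15 ± 0.30 without GFP 1 and GFP 2, -0.71 ± 0.33 with the muscle score and -0.24 ± 0.36 with the hepatocyte score. There were 0.391 to 1.003 srebf1 counts per srebf2 count in MyrRSK libraries (median 0.627) and 0.681 to 1.45 in GFP libraries (median 1.06).

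Over the 11 rows, 9 log2 fold changes were positive and 2 negative, with a median of 0.72, beside a positive share of 44.9% and a median of -0.07 over all genes tested. With edgeR, 1 row (scdb) was called higher, beside 0.29% of all genes tested, and 0 were called lower, beside 0.115% (0.406% in either direction). Since the rows were chosen with this contrast known, nothing is read from these counts. At an unadjusted p under 0.05 there were 4 rows (scdb, scd, fasn and FASN (2 of 2)), all with positive values. The fasn rows are counted separately in all these tallies and are best read as 1 signal. Of all genes tested, 7.18% were higher and 8.33% lower at that threshold. DESeq2 and limma-voom each called scdb alone, and over all genes they called 798 of 27431 and 86 of 26866 higher. No member was called by edgeR with the muscle or hepatocyte score as a covariate, with the replicate number as a block, without GFP 1 and GFP 2, or without MyrRSK 1, 4, 5 or 6 or GFP 1, 2 or 3 singly. In the table deposited by the authors, 1 row was past an adjusted p of 0.05, and 2 rows (fads2 and elovl2) carried no p. The deposited log2 fold changes were 2.29 ± 0.38 for scdb, 0.76 ± 0.27 for fasn and -0.61 ± 0.32 for srebf1 in the authors' deposited table. These are the authors' own estimates by DESeq2 rather than edgeR, so their sizes and SE are not compared with those above.

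**Figure D3:**
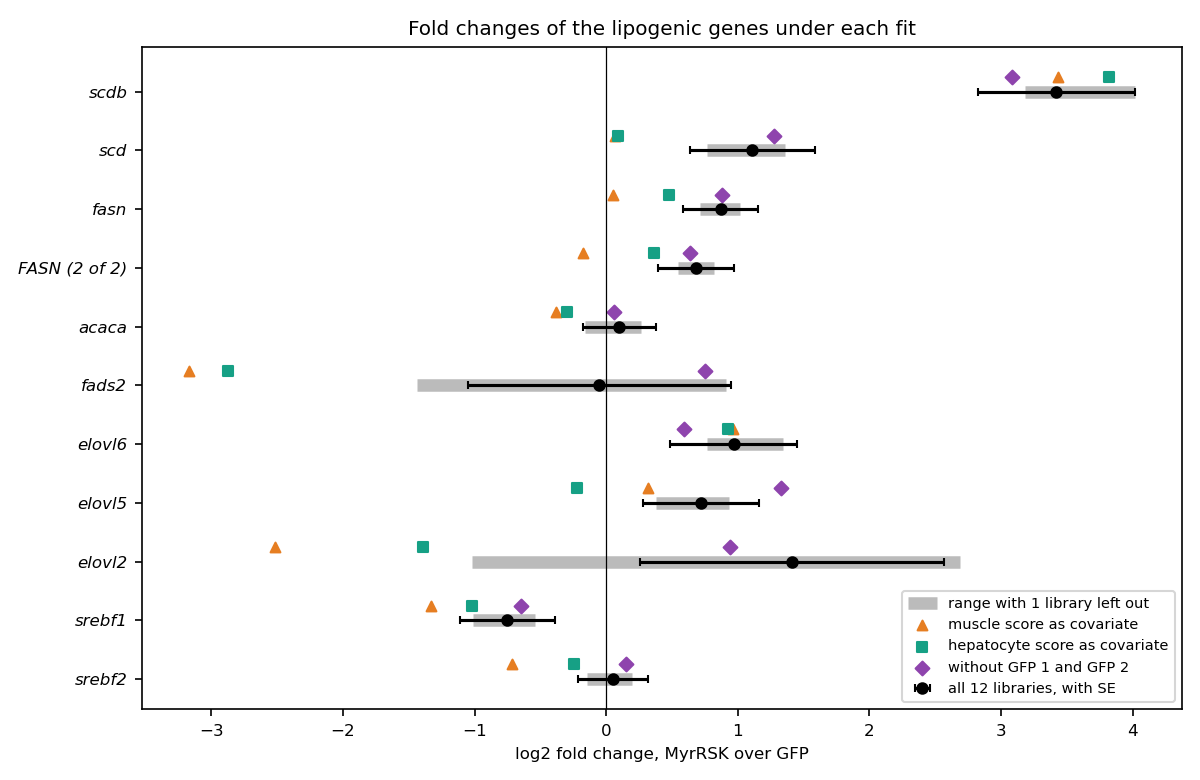
Log2 fold change (MyrRSK over GFP) of each lipogenic gene row with all 12 libraries (black, bars are SE), its range with 1 library left out (grey), and its value with a muscle or hepatocyte marker score as a covariate or without GFP 1 and GFP 2 (coloured). The range of scdb, 3.19 to 4.02, lies far from 0, whereas elovl2 spans -1.02 to 2.69.

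Within each group, tumours differed in which members were high. MyrRSK 2 was the highest of all 12 libraries in 8 of 11 rows (scd, fasn, FASN (2 of 2), acaca, fads2, elovl6, elovl2 and srebf2), and was the highest in 7.92% of all genes tested. The fasn rows are counted separately here and are best read as 1 signal. MyrRSK 2 was also the lowest of its group in scdb. GFP 3 lay above its group mean in 10 of 11 rows, as did MyrRSK 2, whereas MyrRSK 3 and MyrRSK 5 did so in 1 row each. MyrRSK 2 was also the highest library in 21 of 30 cholesterol synthesis genes (70.0%).

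**Figure D4:**
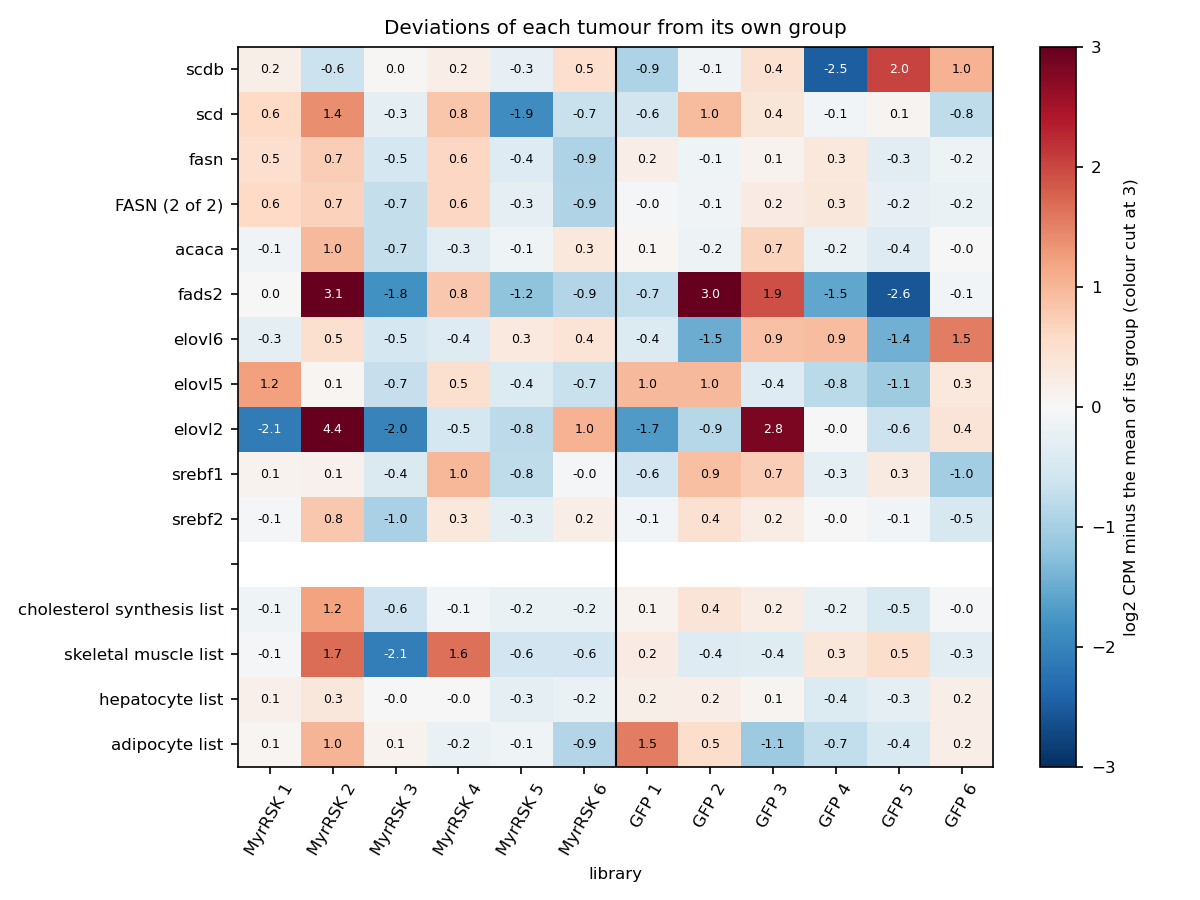
Deviation of each tumour from the mean of its own group (log2 CPM) for the 11 lipogenic gene rows and for 4 gene list scores, with 6 MyrRSK libraries left and 6 GFP libraries right of the line. MyrRSK 2 is above its group mean in 10 rows and below it in scdb.

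Across tumours, 8 pairs of members were compared after each group's mean had been taken away, a measure that does not use the difference between the groups. None of the 8 passed an adjusted p of 0.05 for Pearson's r or Spearman's rho (permutation tests, two-sided, 12 libraries). The lowest r was that of scdb and fasn (r = -0.40, permutation p = 0.0163, adjusted p = 0.131; rho = -0.41, permutation p = 0.102, adjusted p = 0.273). Within the GFP group r was -0.90 (exact permutation p = 0.0153, n = 6), within the MyrRSK group -0.46 (exact permutation p = 0.378, n = 6), and without GFP 4 and GFP 5, farthest from the median in scdb, -0.34. The exact p-values within groups were not adjusted over the 8 pairs, from which this pair was named for its lowest r. For fads2 and elovl5, which act in the same polyunsaturated pathway, r was 0.52 (permutation p = 0.106, adjusted p = 0.425) and rho 0.73 (permutation p = 0.0154, adjusted p = 0.123). Without MyrRSK 2 and GFP 2 its r was 0.50.

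The stearoyl-CoA desaturase genes scdb and scd had r = -0.03 (rho = -0.12), with adjusted permutation p = 0.898 and 0.707. For srebf2 and fasn r was 0.50 (rho = 0.59, adjusted permutation p = 0.593 and 0.273). It was 0.14 without MyrRSK 2 and MyrRSK 3, farthest from the median in srebf2, and 0.31 to 0.75 with 1 library left out. For srebf1 and fasn r was 0.32 (rho = 0.40, adjusted permutation p = 0.605 and 0.400), at 0.63 within MyrRSK and -0.17 within GFP melanomas. The other 3 pairs, fasn with acaca, fasn with elovl6 and elovl5 with elovl2, had r of 0.31, 0.10 and -0.25 (adjusted permutation p = 0.622, 0.702 and 0.622) and rho of 0.23, 0.18 and -0.30.

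The genes whose deviations from the group means lay nearest to those of a member were found among 14872 genes over the 12 libraries, by root mean square distance in log2 CPM. For scdb they were slc29a4 (0.48), apip (0.63) and a row of flnb (0.64), beside a median distance of 1.16. For scd they were MVD (0.50), tm7sf2 (0.60) and dhcr7 (0.61), beside a median of 0.97. All 3 encode enzymes of cholesterol synthesis, but without MyrRSK 2 they ranked 11, 166 and 98. The nearest to fasn were elp6, rpz and PPAP2A (1 of 2) (0.26, 0.27 and 0.27, median 0.67). The nearest to acaca was acat2, a cytosolic acetoacetyl-CoA thiolase gene (0.22, median 0.64), followed by rdh12 and smad9 (0.25 and 0.28). Without MyrRSK 2, slc29a4 ranked 1, elp6 21 and acat2 52.

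Genes that feed fatty acid synthesis, share its elongation steps, act in its mitochondrial form or bear on its control numbered 37 tested. Beside supply genes the list holds mlycd and the kinase subunit genes prkaa1, prkaa2, prkab1a, prkab1b and prkag1. The 37 genes had a median log2 fold change of 0.22. With edgeR, 1 of them, idh1, was called higher and 0 lower, beside 0.29% and 0.115% of all genes tested. Unadjusted p-values under 0.05 numbered 5 for higher and 2 for lower genes of the list, beside 7.18% and 8.33% of all genes. The gene idh1 (ENSDARG00000025375, chromosome 9) encodes the cytosolic isocitrate dehydrogenase, a source of NADPH. It had 115, 203 and 264 CPM in MyrRSK melanomas, against 58.2, 80.4 and 103 CPM in GFP melanomas. All 6 MyrRSK tumours lay above all GFP tumours, with means of 199 ± 52.9 and 82.5 ± 18.3 CPM in MyrRSK and GFP melanomas (SD, n = 6 each). Its log2 fold change was 1.27 ± 0.23 (edgeR adjusted p = 0.0344), higher in 6 of 6. The call ended without MyrRSK 2, 4, 5 or 6 or GFP 1, 2 or 5, without GFP 1 and GFP 2 together (adjusted p = 0.0795), and with the muscle or hepatocyte score as a covariate (log2 fold changes 1.23 and 1.09, adjusted p = 0.275 and 0.151). Its log2 fold change stayed between 1.18 and 1.39 with 1 library left out. The citrate lyase gene aclya, chosen after its values were seen, had a log2 fold change of 0.22 ± 0.22. DESeq2 called 2 of the 37 higher and 1 lower, and limma-voom 1 and 0. Over all genes DESeq2 called 798 higher and 775 lower of 27431, and limma-voom 86 and 20 of 26866. The counts of these methods in every list here stand beside those shares, and nothing is read from them.

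Of 12 other elongase and desaturase genes, 0 were called by edgeR (1 higher and 2 lower unadjusted; DESeq2 0 and 1; limma-voom 0 and 0), with a median of -0.05. Those with the smallest unadjusted p were ELOVL4 (2 of 3) (-1.20 ± 0.40), elovl4b, both for very long chains, and degs1, a ceramide pathway desaturase. The ceramide gene degs1 averaged 174 ± 42.0 CPM in MyrRSK and 118 ± 24.2 CPM in GFP melanomas, and elovl4b 0.915 ± 0.650 and 3.64 ± 3.92 CPM (SD, n = 6 each).

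Genes that control the sterol regulatory factors or act beside them numbered 37, with 15 positive and 22 negative values and a median of -0.08. With edgeR 0 were called, with 1 higher and 8 lower unadjusted, while DESeq2 called 0 and 2 and limma-voom 0 and 0. The smallest unadjusted p was that of mlxip, whose product is a glucose-responsive partner of Mlx. It averaged 17.1 ± 3.04 CPM in MyrRSK and 29.9 ± 6.03 CPM in GFP melanomas (SD, n = 6 each), with all 6 MyrRSK tumours below all GFP tumours (log2 fold change -0.80 ± 0.19, edgeR adjusted p = 0.0798). The uncalled nfyal, a subunit of NF-Y, averaged 4.21 ± 0.726 and 6.81 ± 1.86 CPM in MyrRSK and GFP melanomas, and USF2 (2 of 2), an E-box factor, 2.50 ± 1.04 and 5.06 ± 2.26 CPM (SD, n = 6 each).

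In cholesterol synthesis, the companion pathway under srebf2, 30 of 31 measured genes were tested, 19 with positive and 11 with negative values and a median of 0.09. With edgeR 0 were called (2 higher and 2 lower unadjusted), as with DESeq2 and limma-voom. The smallest unadjusted p were those of the sterol reductase genes tm7sf2 and hsd17b7 and of LPIN1 (2 of 2), a phosphatidate phosphatase gene that other lists here hold too. The gene tm7sf2 averaged 15.6 ± 11.7 CPM in MyrRSK and 7.04 ± 1.65 CPM in GFP melanomas, hsd17b7 46.7 ± 10.99 and 87.6 ± 54.8 CPM, and LPIN1 (2 of 2) 21.1 ± 4.80 and 32.5 ± 9.56 CPM (SD, n = 6 each). Adding the muscle score gave tm7sf2 a log2 fold change of -0.034 ± 0.49, against 1.14 ± 0.40 without it.

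For the assembly of glycerolipids and lipid droplets, 33 genes were tested, with a median of 0.05. With edgeR 0 were called (7 higher and 3 lower unadjusted; DESeq2 2 and 2; limma-voom 0 and 0). AGPAT6, whose product in mammals starts glycerolipid synthesis, averaged 41.8 ± 5.81 CPM in MyrRSK and 26.6 ± 3.27 CPM in GFP melanomas (SD, n = 6 each). All 6 MyrRSK tumours lay above all GFP tumours (log2 fold change 0.65 ± 0.15, edgeR adjusted p = 0.0754). The triglyceride synthesis gene dgat2 had 1049 and 1083 CPM in GFP 1 and GFP 2, and between 1.06 and 6.19 CPM in the other 10 tumours. Its log2 fold change of -7.45 ± 1.76 was -0.89 without GFP 1 and GFP 2. ENSDARG00000025912, which a table of current names lists as BSCL2, a lipid droplet gene, stood at 28.0 CPM in GFP 2 and at most 5.30 CPM elsewhere. A more abundant row, bscl2 (ENSDARG00000037008), picked with its values in view, went the other way and was not called. It averaged 26.2 ± 8.14 CPM in MyrRSK and 16.1 ± 5.96 CPM in GFP melanomas (SD, n = 6 each; log2 fold change 0.70 ± 0.32).

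For fatty acid uptake, activation and binding, 33 of 34 measured genes were tested, with a median of -0.06. With edgeR 0 were called (5 higher and 3 lower unadjusted; DESeq2 0 and 1; limma-voom 0 and 0). The acyl-CoA synthetase gene acsl3a averaged 6.59 ± 1.67 CPM in MyrRSK and 14.7 ± 10.4 CPM in GFP melanomas (SD, n = 6 each), with all 6 MyrRSK tumours below all GFP tumours. GFP 2 alone had 35.8 CPM. The binding protein gene fabp1b.1 stood at 136 CPM in MyrRSK 3 and at most 7.95 CPM in the other 11 libraries, and the transporter gene slc27a6 at 28.0 CPM in GFP 2.

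**Figure D5:**
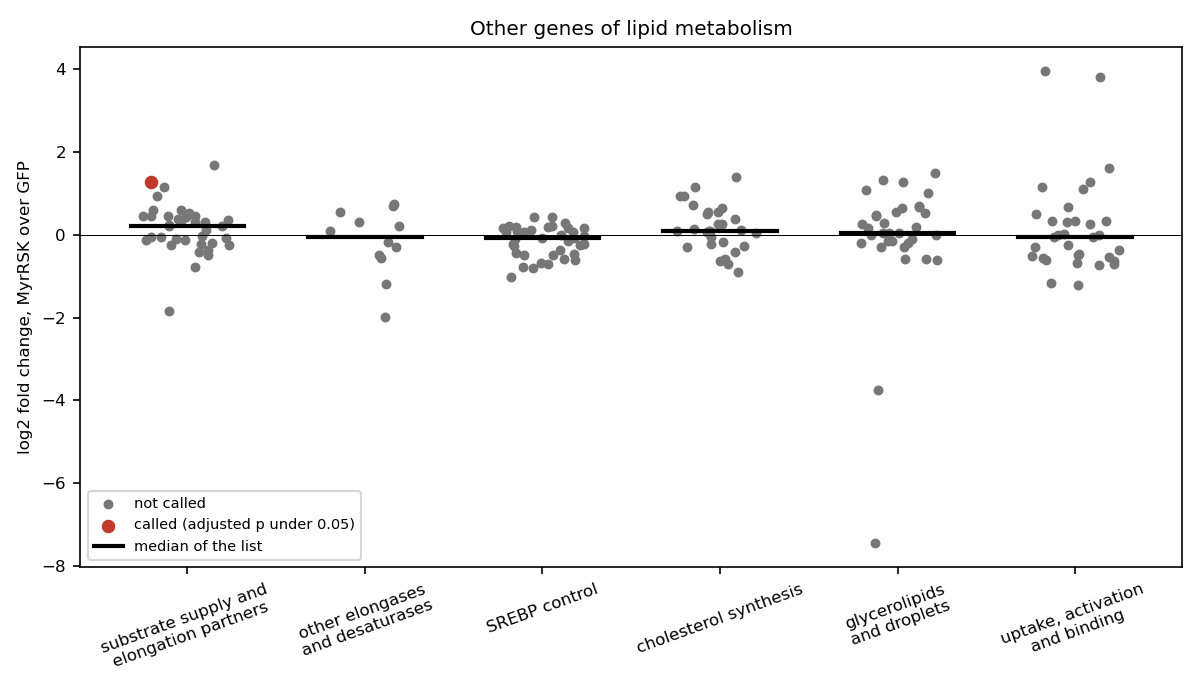
Log2 fold change (MyrRSK over GFP) of every tested gene in 6 lists of lipid metabolism, with the median of each list as a line and called genes in red. Only idh1 (1.27) is called, list medians lie between -0.08 and 0.22, and the lowest point is dgat2 at -7.45.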

How the data were processed

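A single table was used. It holds, as deposited by the authors, raw read counts for each Ensembl gene in each library. A second column per library is a signal made by the authors, the count divided by a size factor. The deposited log2 fold changes, standard errors and p-values are the authors' own. Per the submitters' processing notes the tools were STAR 2.6.1d, HTSeq 0.6.0 and DESeq2, and the build was Zv9. Annotation release and strand setting: not given in the sources used here.

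The test was edgeR 4.0.16 (R 4.3.3; filterByExpr, TMM, robust quasi-likelihood, no term but group) on 26866 genes. Standard errors come from each fold change and its F value. Log2 CPM has a prior count of 1. Alternatives were other scalings, filters, DESeq2 1.42.0, limma-voom (limma 3.58.1), marker scores as covariates, the replicate number as a block and libraries left out. The members, the 6 lipid lists, the 7 marker lists and the tests were chosen with earlier results of these data known. The genes named are all members. For each lipid list they are the called genes or, without any, the 3 with the smallest unadjusted p, and for each marker list the called genes or the 2 with the highest mean. For likeness they are the 3 nearest genes with a mean count of at least 100. Genes outside this rule are marked as picked with their values in view, as were tfa, fga, fabp10a, plin1, slc24a5, oca2, CIDEC and the sterol genes of MyrRSK 2. Symbols were taken from the table, and a table of current names matched 68.5% of the IDs. Figures were drawn with matplotlib 3.10.9.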

Additional observations from a re-analysis of the deposited data

How the results depend on the processing

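Over all genes, edgeR called 78 higher and 31 lower. With a mean count of at least 100, 65 were lower. The calls of DESeq2 were 798 and 775, and limma-voom called 20 lower. With a muscle score as a covariate edgeR called 1 higher and 0 lower (1305 and 1110 unadjusted), with a hepatocyte score 1 and 1, and without GFP 1 and GFP 2 23 and 7. In these 3 fits and with the replicate block 0 members were called higher. With 1 library left out, calls ran from 1 to 104 higher and from 0 to 84 lower, with 0 to 1 members higher; scdb was not called without MyrRSK 1, 4, 5 or 6 or GFP 1, 2 or 3. The replicate numbers share only a number: the correlation of deviations within same-numbered tumours ran from -0.15 to 0.10, and no library correlated best with its own number. With the replicate block 6 genes were higher and 0 lower (1855 and 1310 unadjusted), and idh1 was not called (log2 fold change 1.26, adjusted p = 0.0845). With the muscle score, log2 fold changes (± SE) were 0.070 ± 0.62 for scd, 0.051 ± 0.32 for fasn and -0.17 ± 0.33 for FASN (2 of 2). In the same fit they were -3.17 ± 1.82 for fads2, -2.52 ± 1.89 for elovl2, -0.71 ± 0.33 for srebf2 and -0.034 ± 0.49 for tm7sf2. With the hepatocyte score they were 0.092 ± 0.66 for scd, -2.87 ± 0.89 for fads2 (edgeR adjusted p = 0.218), -0.22 ± 0.43 for elovl5 and -1.39 ± 1.57 for elovl2. With 1 library left out elovl2 ran from -1.02 to 2.69. The cause was not tested. The r of scdb and scd was 0.032 within GFP and -0.12 to 0.079 with 1 library left out. That of fasn and acaca ran from -0.044 to 0.57, and that of fasn and elovl6 from -0.015 to 0.25, with -0.15 within MyrRSK. For srebf1 and fasn it was -0.17 within GFP. Leaving out MyrRSK 2 for the nearest genes was chosen after seeing the data.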

Other observations

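Sterol synthesis genes stood high in a single tumour. In MyrRSK 2, hmgcs1, which makes the precursor of mevalonate, had 198 CPM, against 21.2 to 57.9 CPM in the other 11 tumours. The squalene epoxidase gene SQLE (1 of 2) had 30.4 CPM there, against 0.378 to 6.67 CPM elsewhere. The sterol demethylase gene cyp51 had 160 CPM, against 3.41 to 35.3 CPM elsewhere, and the farnesyl diphosphate synthase gene fdps 148 CPM, against 16.1 to 40.1 CPM elsewhere. The mean log2 CPM of the 30 cholesterol synthesis genes was 4.64 in MyrRSK 2, and the next highest was 3.79 in GFP 2. These 4 genes were chosen after their values were seen. MyrRSK 2 is also the tumour with the lowest scdb of its group, at 89.8 CPM.

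The sterol sensor gene insig1, whose product holds the sterol regulatory precursors in the endoplasmic reticulum, was named after its values were seen too. It had 90.0 CPM in MyrRSK 2 and 92.8 CPM in GFP 2, the 2 tumours with the highest fads2, and 7.50 to 48.5 CPM in the other 10. Fat cell markers ran from 159 to 794 summed CPM in MyrRSK and from 94.6 to 706 CPM in GFP melanomas, highest in MyrRSK 2 and GFP 1, with 0 of 14 called by edgeR (2 higher and 0 lower unadjusted; DESeq2 1 higher; limma-voom 0). On average most of the summed CPM came from cebpb and fabp11a, whereas plin1 and CIDEC were low, and the sum is not read as a share of fat cells.

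Markers of other cells that a tumour sample can hold were not called by edgeR in either direction for brain and glia (26 genes), keratinocytes (18), blood and leukocytes (41) or melanocytes (20). At an unadjusted p under 0.05 these lists had 3, 1, 7 and 1 higher and 2, 4, 2 and 3 lower genes, DESeq2 called 3, 0, 0 and 0 higher and 1, 1, 0 and 2 lower, and limma-voom 0. Their median log2 fold changes were 0.20, -0.45, 0.46 and -0.31. These counts compare the groups and do not show that single tumours were alike. Picked with its values in view, GFP 1 was the highest library in 16 of 18 keratinocyte genes (88.9%), beside 13.05% of all genes tested. Its keratinocyte genes summed to 13084 CPM, and the next highest sum was 8574 CPM, in MyrRSK 2. The most abundant members were fabp7a and mbpb for brain, icn and krt8 for keratinocytes, the globin genes hbaa1 and ba1 for blood, tyrp1b and pmela for melanocytes, and cebpb and fabp11a for fat cells. Of the 20 melanocyte genes 5 had positive and 15 negative log2 fold changes. The pigment cell gene tyrp1b averaged 6988 ± 3523 CPM in MyrRSK and 5864 ± 4219 CPM in GFP melanomas, and pmela 3291 ± 1632 and 8348 ± 7725 CPM (SD, n = 6 each). The log2 fold changes of pmela, slc24a5 and oca2 were -1.34 ± 0.65, -2.01 ± 0.70 and -4.89 ± 1.12, and none of them was called. Of these, slc24a5 and oca2 were picked with their values in view. Picked in the same way, trpm1b had 0.84 ± 0.33, mitfa -0.21 ± 0.24 and sox10 -0.08 ± 0.30, also not called by edgeR.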
